A study of Sus scrofa with 12 samples.

Results

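Hepatic transcript abundance of the translation factors and the cytosolic tRNA synthetases was compared between pigs of low and high residual feed intake (RFI). Members were taken by gene symbol alone. They were the genes whose platform symbol begins with EIF or EEF, 1 EIF symbol left out by the rule, and those of 20 listed synthetase symbols that the platform annotation names. This gave 72 of the 13755 genes named on the array, 56 of them translation factors and 16 of them synthetases, while the symbols CARS, FARSA, HARS and WARS were not among the named probe sets. The 72 genes had 127 probe sets among the 47845 of the array, and 33 genes had more than 1. Each gene was represented by its probe set of highest mean over the 12 arrays, and 11 of these carry the mark for probe sets that match several transcripts.

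RFI is the feed a pig eats beyond what its growth and body size predict, so pigs of low RFI are the feed-efficient ones. Each RFI class of the sample labels held 6 pigs, 3 males (m) and 3 females (w), and all 12 were sampled at day 140. By the study's methods, the pigs were crossbred offspring of Large White × Landrace sows and Hylean Maxgro sires, all were fed the same diet ad libitum, and liver was taken after feeding from siblings of the same sex that diverged in RFI. Litter and sibling are not among the labels, which left the pairs out of the model, and no unselected group serves as a reference. A pig is written here as P with its label number. P301, P302, P303, P304, P317 and P318 were labelled high RFI, and P307, P308, P309, P310, P323 and P324 low RFI.

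Translation of an mRNA begins when eIF4E binds its cap and eIF4A, an RNA helicase, joins it through the scaffold eIF4G. The small ribosomal subunit, loaded by eIF3 and by eIF2 with the initiator tRNA, then searches for the start codon. eIF2 is recharged by the exchange factor eIF2B, and kinases that sense stress or amino acid shortage phosphorylate its alpha subunit and thereby slow initiation while favouring the translation of a few mRNAs, ATF4 among them. Elongation factors then bring charged tRNAs to the ribosome and move it along, and each synthetase couples 1 amino acid or, in the case of EPRS, a pair of them to the matching tRNAs. The liver makes most plasma proteins and takes up dietary amino acids first, which puts a high load on this machinery.

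The values are log2 intensities after normalization by the authors, with array medians from 3.48 to 3.53. All 7 hepatocyte markers were on the array, and their mean over the list lay between 12.83 and 13.03 in every pig. Over the other 6 marker lists, CD163 of macrophages (0.68) and RGS5 of stellate cells and fibroblasts (0.71) had an unadjusted p under 0.05. Both had a higher mean in pigs labelled low RFI. The other macrophage markers differed by 0.25 (VSIG4), 0.00 (MARCO) and -0.04 (CD14). In the list of RGS5, LUM (0.16), COL3A1 (0.01), DCN (-0.13) and COL1A1 (-0.21) split in sign. The medians of these lists were 0.13 and 0.01. Of the 33 marker genes on the array, 0 passed q under 0.30 (2 at an unadjusted p under 0.05, 0 at a Benjamini-Hochberg p under 0.30). On the first principal component of all probe sets, with 14.8% of the variance, pig P317, labelled high RFI, lay at -28.2, among the pigs labelled low RFI (-37.5 to -8.7), whereas the 5 others of its class lay between 7.8 and 40.0. The array also carries probe sets without a target. Those with 17 to 24 G or C bases, a range taken from earlier results, had a mean of 6.55 ± 0.08 (SD, n = 6) in low RFI and 6.69 ± 0.11 (SD, n = 6) in high RFI. The whole array was fitted again with this background as a covariate, and 0 of the 72 members passed q under 0.30. In the 20 members whose values were kept for the alternatives, q was 0.992 throughout. The background itself went with class. It lay between 6.47 and 6.67 in low RFI and between 6.67 and 6.78 in high RFI, P317 (6.49) apart. Differences with this covariate therefore cannot tell background from RFI class. In whole liver, fewer cells of a type and less RNA per cell cannot be told apart.

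None of the 72 members differed between the RFI classes at q under 0.30. The smallest q was 0.443, and 0.0314% of all probe sets (0.0436% of all genes, each with its brightest probe set) passed that threshold. At an unadjusted p under 0.05, 3 members had a higher and 2 a lower mean in pigs labelled low RFI. Over all genes these shares were 4.68% and 4.45%, and over all probe sets 3.79% and 3.51%, so the counts of members are close to the background. Differences are given on the log2 scale as the mean of the low RFI label minus that of the high RFI label, with the standard error (SE) of limma. The study lists the probe set of EIF2C4 as AGO4, and a dimmer one of EIF5 under a LOC symbol rather than as EIF5. By the labels, the differences of both probe sets run opposite to the direction the study gives. The same holds for the probe sets that the study lists as EIF2S2 and EIF1AX, which are not members here. All signs here follow the labels, and if the classes were exchanged every sign would turn. Which of these directions is right was not tested. The difference was positive for 32 and negative for 40 members, with a median of -0.026 against -0.02 for all genes. The median size of a difference was 0.12 (1.09-fold), about the same as the median SE of 0.13, and the corresponding medians of all genes were 0.11 and 0.13. The classes overlapped in all 72 members, and they did not in 0.378% of all genes and 0.339% of all probe sets. The 95% interval stayed within 1.5-fold in either direction for 65 of the 72 members, as for 82.8% of all genes and 82.2% of all probe sets. Those reaching past it were EEF1E1, EIF1AD, EIF1AY, EIF2AK2, EIF2C4, EIF4A1 and EIF4E3.

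**Figure D1:**
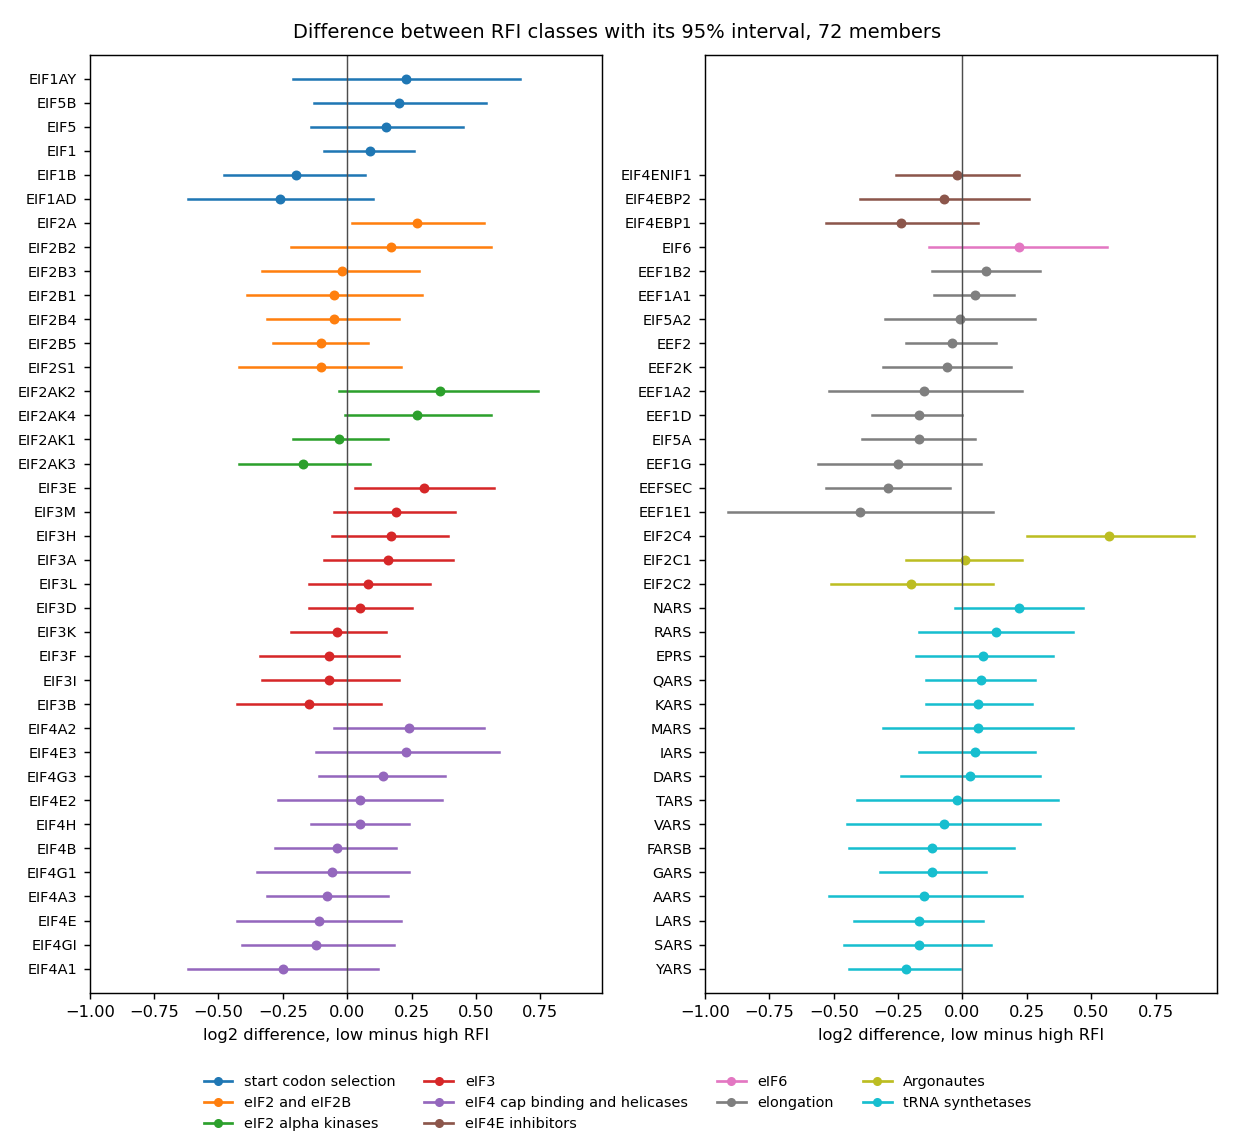
Log2 difference between the RFI classes (low minus high, x axis) for each of the 72 members (rows, coloured by role), with points for limma's estimate and lines for its 95% interval, n = 6 pigs per class. Of all intervals, those of EIF2C4, EIF3E, EIF2A, EEFSEC and YARS leave out 0.

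The filter on SD in the study's methods changed the call of EIF2C4 among the brightest probe sets. It kept 57 members and left out 15, of which 9 had an SD in the lowest 10% over all pigs and 6 in the highest 10% within a class. With it, 1 member was called at q under 0.30 (EIF2C4, q = 0.0541), where 3.33% of the genes and 2.66% of the probe sets that it kept were called. Leaving out P317 instead called 3 members without the filter, EIF2AK2 (q = 0.161), EIF2C4 (q = 0.163) and EIF2A (q = 0.264), and in that fit 3.74% of all genes and 2.81% of all probe sets were called.

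EIF2C4 had the largest difference of the 72 genes. It is the older symbol of AGO4, 1 of the Argonaute proteins that carry small RNAs to their target mRNAs, and it enters here by its symbol rather than as an initiation factor. Its log2 values were 6.05, 6.15, 6.33, 6.33, 5.89 and 6.21 in the pigs P307, P308, P309, P310, P323 and P324 labelled low RFI. In pigs labelled high RFI they were 5.99 (P301), 5.35 (P302), 5.19 (P303), 5.27 (P304), 5.95 (P317) and 5.78 (P318). P302, P303 and P304 were thus the lowest of all pigs, P318 lay just under the low RFI values, and P301 and P317 lay above P323. The means were 6.16 ± 0.17 and 5.59 ± 0.36 (SD, n = 6 each), with a difference of 0.57 (SE 0.15, 95% interval 0.25 to 0.90, q = 0.443). It was 0.66 in males and 0.48 in females. The probe set is SNOWBALL_008731, and the 3 dimmer ones of the gene differed by 0.32, 0.22 and -0.06 with q of at least 0.673. Of the other Argonautes, EIF2C1 (AGO1) differed by 0.01 (95% interval -0.22 to 0.23), and EIF2C2 (AGO2), the slicing Argonaute of mammals, by -0.20 (95% interval -0.51 to 0.12).

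**Figure D2:**
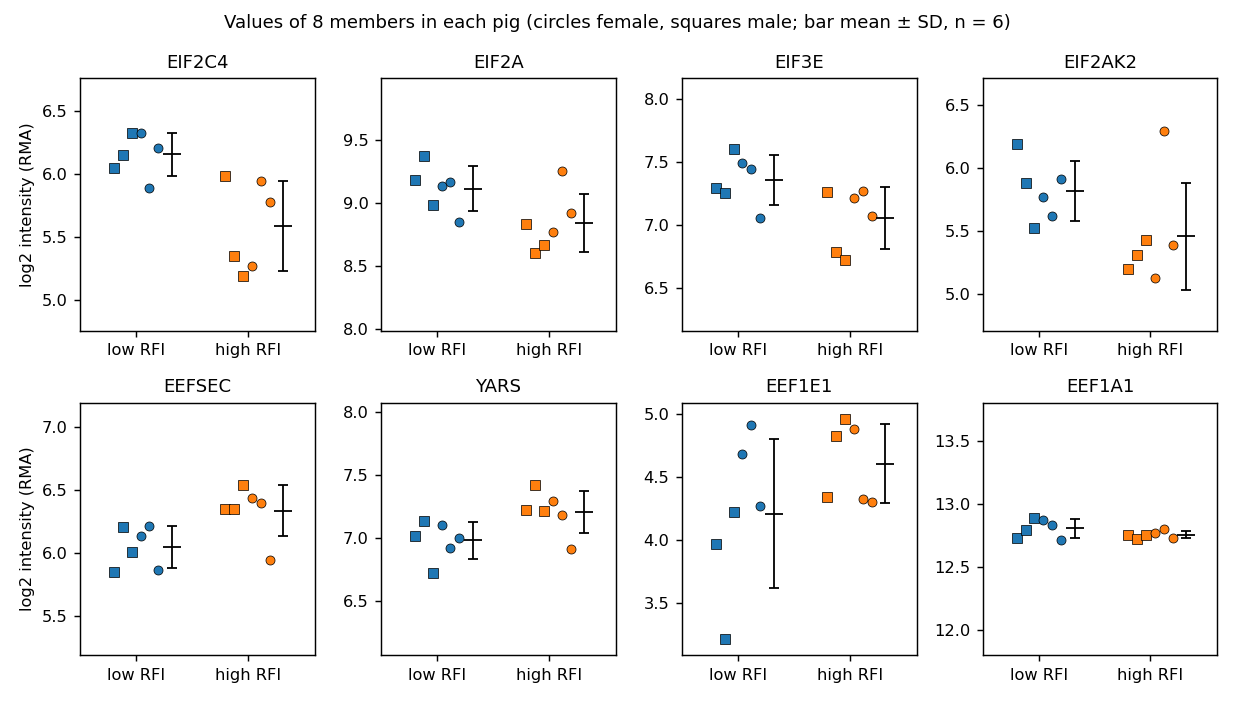
Log2 intensity (y axis) of single members in the 6 pigs of each RFI class (x axis), with 1 point per pig and horizontal bars for class means with their SD. In EIF2C4, 3 pigs labelled high RFI lie between 5.19 and 5.35, below all others (5.78 to 6.33).

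Among the eIF3 subunits, which bridge the small ribosomal subunit and the mRNA, EIF3E stood first. Its values were 7.29, 7.25, 7.60, 7.49, 7.44 and 7.05 in P307, P308, P309, P310, P323 and P324 of low RFI, against 7.26, 6.78, 6.72, 7.21, 7.27 and 7.07 in P301, P302, P303, P304, P317 and P318 of high RFI. P302 and P303 were the lowest of the 12 pigs, and the other values of both classes overlapped. The difference was 0.30 (SE 0.13, 95% interval 0.03 to 0.57, q = 0.580), with 0.46 in males and 0.14 in females. Of the 10 eIF3 members 6 had a positive difference, with a median of 0.07. EIF3M (0.19), EIF3H (0.17) and EIF3A (0.16) followed EIF3E, and EIF3B, a core scaffold subunit, lay at the other end with -0.15 (95% interval -0.43 to 0.13). EIF3L (0.08), EIF3D (0.05), EIF3K (-0.04), EIF3F (-0.07) and EIF3I (-0.07) lay between them, with q of at least 0.788. EIF3B had its 3 highest values in P302 (7.69), P304 (7.58) and P303 (7.40) and no other pig above 7.37.

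The group of eIF2 and eIF2B held 7 genes, of which 5 had a negative difference. The eIF2 subunit EIF2S2 is not among them, because the platform annotation does not name it. The study lists a probe set as EIF2S2 from these same samples. That probe set differed by 0.47 (SE 0.18, 95% interval 0.08 to 0.87, q = 0.549 without and 0.195 with the SD filter). EIF2S1, the alpha subunit that the kinases phosphorylate, was 5.69 ± 0.21 in low RFI and 5.79 ± 0.32 in high RFI (SD, n = 6 each), a difference of -0.10 (95% interval -0.42 to 0.21). Within the sexes its difference was -0.38 in males and 0.18 in females. The subunits of the exchange factor eIF2B differed by between -0.10 (EIF2B5) and 0.17 (EIF2B2), with EIF2B1 at -0.05, EIF2B3 at -0.02 and EIF2B4 at -0.05, and all with q of at least 0.716. EIF2B5, the catalytic subunit, was among the members of narrowest range, from 6.14 to 6.50 over the 12 pigs.

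EIF2A, which is no subunit of eIF2 but a separate protein that can also deliver initiator tRNA, was the 1 member of this group with an unadjusted p under 0.05. Its values were 9.18, 9.37, 8.98, 9.13, 9.16 and 8.85 in P307, P308, P309, P310, P323 and P324 of low RFI. The high RFI values were 8.83, 8.60, 8.66, 8.77, 9.25 and 8.92 in P301, P302, P303, P304, P317 and P318. P317 lay above all low RFI pigs but P308, while 4 of its class lay below every low RFI pig. The difference was 0.27 (SE 0.12, 95% interval 0.02 to 0.53, q = 0.589), with 0.48 in males and 0.07 in females. The dimmer probe set of the gene pointed the same way with 0.24 (SE 0.09, q = 0.546), but it read only 2.17 to 2.64, under the array median in all pigs. With the background probe sets as a covariate the difference of the brighter one was 0.06.

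Of the 4 kinases of eIF2 alpha, 2 had positive and 2 negative differences. EIF2AK2 (PKR), which is activated by double-stranded RNA, ranged from 5.52 to 6.19 with a median of 5.82 in low RFI and from 5.13 to 6.29 with a median of 5.35 in high RFI. The highest value of all belonged to P317, and the other 5 pigs of high RFI (5.13 to 5.43) lay below every pig of low RFI. The difference was 0.36 (SE 0.18, q = 0.618) with all pigs and 0.53 without P317 (q = 0.161), but 0.05 with the background covariate, and its dimmer probe set gave -0.11. EIF2AK4 (GCN2), which senses uncharged tRNA, ranged from 5.97 to 6.77 in low RFI (median 6.30) and from 5.96 to 6.24 in high RFI (median 6.07), so the spread was wider in low RFI. Its difference was 0.27 (SE 0.13, 95% interval -0.01 to 0.56, q = 0.610) and 0.15 with the background covariate, and the other probe sets gave 0.17 and 0.21. EIF2AK3 (PERK), the kinase of the endoplasmic reticulum, differed by -0.17 (95% interval -0.42 to 0.09) and through its dimmer probe set by 0.06, and EIF2AK1 (HRI), the heme-regulated kinase, by -0.03 (95% interval -0.21 to 0.16) with all 12 values between 6.83 and 7.15.

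The 6 factors of start codon selection had a median difference of 0.12, and none had an unadjusted p under 0.05. EIF1, which holds the scanning ribosome open, was narrow at 8.01 to 8.38 and differed by 0.09 (95% interval -0.09 to 0.26). Its paralog EIF1B differed by -0.20, and EIF1AD, named for its eIF1A-like domain, by -0.26 (95% interval -0.62 to 0.10). In EIF1AD the 2 highest values, 7.35 and 7.31, belonged to P303 and P302, and the other 10 pigs lay between 6.39 and 6.96. EIF5, which triggers GTP hydrolysis by eIF2, gave 0.15 (95% interval -0.14 to 0.45) through its brightest probe set. Through another, SNOWBALL_026365, it gave 0.45 (SE 0.16, q = 0.536 without and 0.195 with the SD filter), with 8.07 to 8.53 in low RFI and 7.43 to 8.41 in high RFI. The platform annotation names this probe set EIF5, whereas the study lists it under a LOC symbol. EIF5B, which joins the ribosomal subunits, differed by 0.20. A probe set that the study lists as EIF1AX is not a member, as the platform annotation does not name it so. It gave 0.41 (SE 0.16, q = 0.549 without and 0.251 with the SD filter). EIF1AY is a Y chromosome gene in RefSeq and yet read between 5.94 and 7.21 in all pigs, with 6.66 ± 0.42 in the 6 females and 6.31 ± 0.31 in the 6 males (SD). The reading in females thus does not come from a gene on that chromosome, and the part of such a gene in males cannot be told.

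The 11 cap-binding and helicase factors had a median difference of -0.04 and none with an unadjusted p under 0.05 through the brightest probe set. The paralogs of the helicase eIF4A lay apart in sign. EIF4A1 ranged from 8.86 to 9.36 (median 9.09) in low RFI and from 8.97 to 10.01 (median 9.25) in high RFI, and P302, P303 and P304 held its 3 highest values. EIF4A2 ranged from 9.34 to 9.81 (median 9.52) and from 8.89 to 9.78 (median 9.32), with P302 lowest. The differences were -0.25 (95% interval -0.62 to 0.12) for EIF4A1 and 0.24 (95% interval -0.05 to 0.53) for EIF4A2, and neither leaves out 0. That of EIF4A1 was -0.11 without P302, -0.57 in males and 0.07 in females, and that of EIF4A2 was 0.05 with the background covariate. Probes of close paralogs such as EIF4A1 and EIF4A2, EIF1 and EIF1B or EEF1A1 and EEF1A2 may bind the transcripts of both, so the gene behind a value is uncertain there. EIF4A3, the helicase of the exon junction complex, differed by -0.08 and also had its 3 highest values in these pigs (7.68 to 7.81, others up to 7.63).

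The cap-binding protein EIF4E differed by -0.11 (95% interval -0.43 to 0.21), and by -0.32 with the background covariate. Its relatives EIF4E2 and EIF4E3 differed by 0.05 and 0.23, and a dimmer probe set of EIF4E3 gave 0.37 (SE 0.17, q = 0.589). The scaffold is named by a pair of symbols on this platform, EIF4G1 and its synonym EIF4GI, which differed by -0.06 and -0.12 through separate probe sets, while EIF4G3 differed by 0.14. With the background covariate EIF4G1 differed by 0.17. The helper proteins of the helicase, EIF4B (-0.04) and EIF4H (0.05), had intervals from -0.28 to 0.19 and from -0.14 to 0.24. EIF4B read low, with a mean of 3.43 under the array median. EIF4EBP1, which sequesters eIF4E when mTORC1 is inactive, ranged from 7.20 to 7.49 in low RFI and from 7.28 to 8.03 in high RFI, with P302 (8.03) and P303 (7.92) alone above 7.49. Its difference was -0.24 (SE 0.14, q = 0.650) and -0.14 without P302, and its other probe set gave -0.25. EIF4EBP2 (-0.07) and the eIF4E transporter EIF4ENIF1 (-0.02) had intervals on both sides of 0. EIF6, which keeps the large ribosomal subunit from joining too early, differed by 0.22 (95% interval -0.13 to 0.56).

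In the elongation group, 9 of 11 members had a negative difference, where 44.9% of all genes had a positive one. Of these 9, EEF1A2, EEF1G and EIF5A2 read under the array median in all pigs. The median of the group was -0.15, but 1 member alone had an unadjusted p under 0.05. This was EEFSEC, the factor that brings selenocysteine to the ribosome. Its values were 5.85, 6.21, 6.01, 6.14, 6.22 and 5.87 in P307, P308, P309, P310, P323 and P324 of low RFI and 6.35, 6.35, 6.54, 6.44, 6.40 and 5.95 in P301, P302, P303, P304, P317 and P318 of high RFI. P318 apart, every pig of high RFI lay above every pig of low RFI. The difference was -0.29 (SE 0.11, 95% interval -0.53 to -0.05, q = 0.546), and it was -0.39 in males and -0.19 in females. The gene has 1 probe set, SNOWBALL_015656.

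EEF1E1, a small protein that sits in the multisynthetase complex, had the widest range of all members, 1.74. It read from 3.22 to 4.91 in low RFI (median 4.24) and from 4.30 to 4.96 in high RFI (median 4.59), and P308 was lowest, followed by P307 at 3.97. The difference was -0.40 (95% interval -0.91 to 0.12), with -0.91 in males and 0.11 in females (interaction with sex q = 0.962), and it was -0.20 without P308. EEF1A1, which carries charged tRNAs to the ribosome, had the narrowest range. Its 12 values lay between 12.71 and 12.89, and its difference was 0.05 (95% interval -0.11 to 0.20). The paralog EEF1A2, a muscle and neuron form, read between 2.15 and 3.26, under the array median in all pigs. EEF2, the translocase, read between 6.28 and 6.64 and differed by -0.04 (95% interval -0.22 to 0.13). Its kinase EEF2K differed by -0.06 (95% interval -0.31 to 0.19). The exchange subunits EEF1B2 (0.09), EEF1D (-0.17) and EEF1G (-0.25) did not share a sign, and the probe set of EEF1G read at most 2.85 in all pigs. EIF5A, which helps the ribosome past proline runs, differed by -0.17 (95% interval -0.39 to 0.05) with its 3 highest values again in P302, P303 and P304, and EIF5A2 read at most 1.98 throughout.

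The 16 tRNA synthetases were split evenly, with 8 positive and 8 negative differences and a median of 0.00. YARS, the synthetase for tyrosine, had the 1 unadjusted p under 0.05. Its values were 7.01, 7.13, 6.72, 7.10, 6.92 and 7.00 in P307, P308, P309, P310, P323 and P324 of low RFI and 7.22, 7.42, 7.21, 7.29, 7.18 and 6.91 in P301, P302, P303, P304, P317 and P318 of high RFI. As in EEFSEC, P318 was the 1 pig of high RFI among those of low RFI. The difference was -0.22 (SE 0.10, 95% interval -0.44 to -0.01, q = 0.595), but the dimmer probe set gave 0.09 (95% interval -0.18 to 0.36).

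At the other end of the synthetases, NARS, for asparagine, differed by 0.22 (95% interval -0.03 to 0.47), with P318 at 7.37 and all others between 7.83 and 8.28. AARS, for alanine, had the second widest range of all members, from 6.82 in P309 to 8.28 in P302, with the other 10 pigs between 7.54 and 7.82. The difference of its means was -0.15 (95% interval -0.52 to 0.23), 0.01 without P309, -0.04 without P302 and -0.24 with the background covariate. TARS, for threonine, ranged from 4.42 in P301 to 5.64 in P302 and differed by -0.02 (95% interval -0.41 to 0.37). The bifunctional EPRS differed by 0.08, and KARS and QARS, for lysine and glutamine, by 0.06 and 0.07 with intervals between -0.14 and 0.28. SARS (-0.17), GARS (-0.12), FARSB (-0.12), VARS (-0.07), RARS (0.13), MARS (0.06), IARS (0.05) and DARS (0.03) had q of at least 0.704. MARS read low, with a mean of 3.16 under the array median. LARS (-0.17) read at most 1.94 in all pigs through its 1 probe set, and a scarce transcript and a poorly reading probe set cannot be told apart.

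Variation between pigs was not spread evenly over the members. P302, labelled high RFI, had the highest value of the 12 pigs in 18 of 72 members (25.0%), where it was highest in 11.2% of all genes. These 18 included 7 of the 16 synthetases and 4 of the 11 cap-binding and helicase factors. P309 and P318 each had the lowest value in 11 members (15.3%, against 7.26% and 8.27% of all genes). P302, P303 and P304 together held the 3 highest values in 6 members (8.33%; EIF1B, EIF3B, EIF4A1, EIF4A3, EIF5A and FARSB) and the 3 lowest in 2 (2.78%; EIF2A and EIF2C4), against 2.23% and 2.26% of all genes. These pigs were picked out once their values were known, and no test was made. The array median of P302 was 3.52 and its background probe sets averaged 6.67, both inside the range of the other arrays, and the part of RNA quality was not tested.

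**Figure D3:**
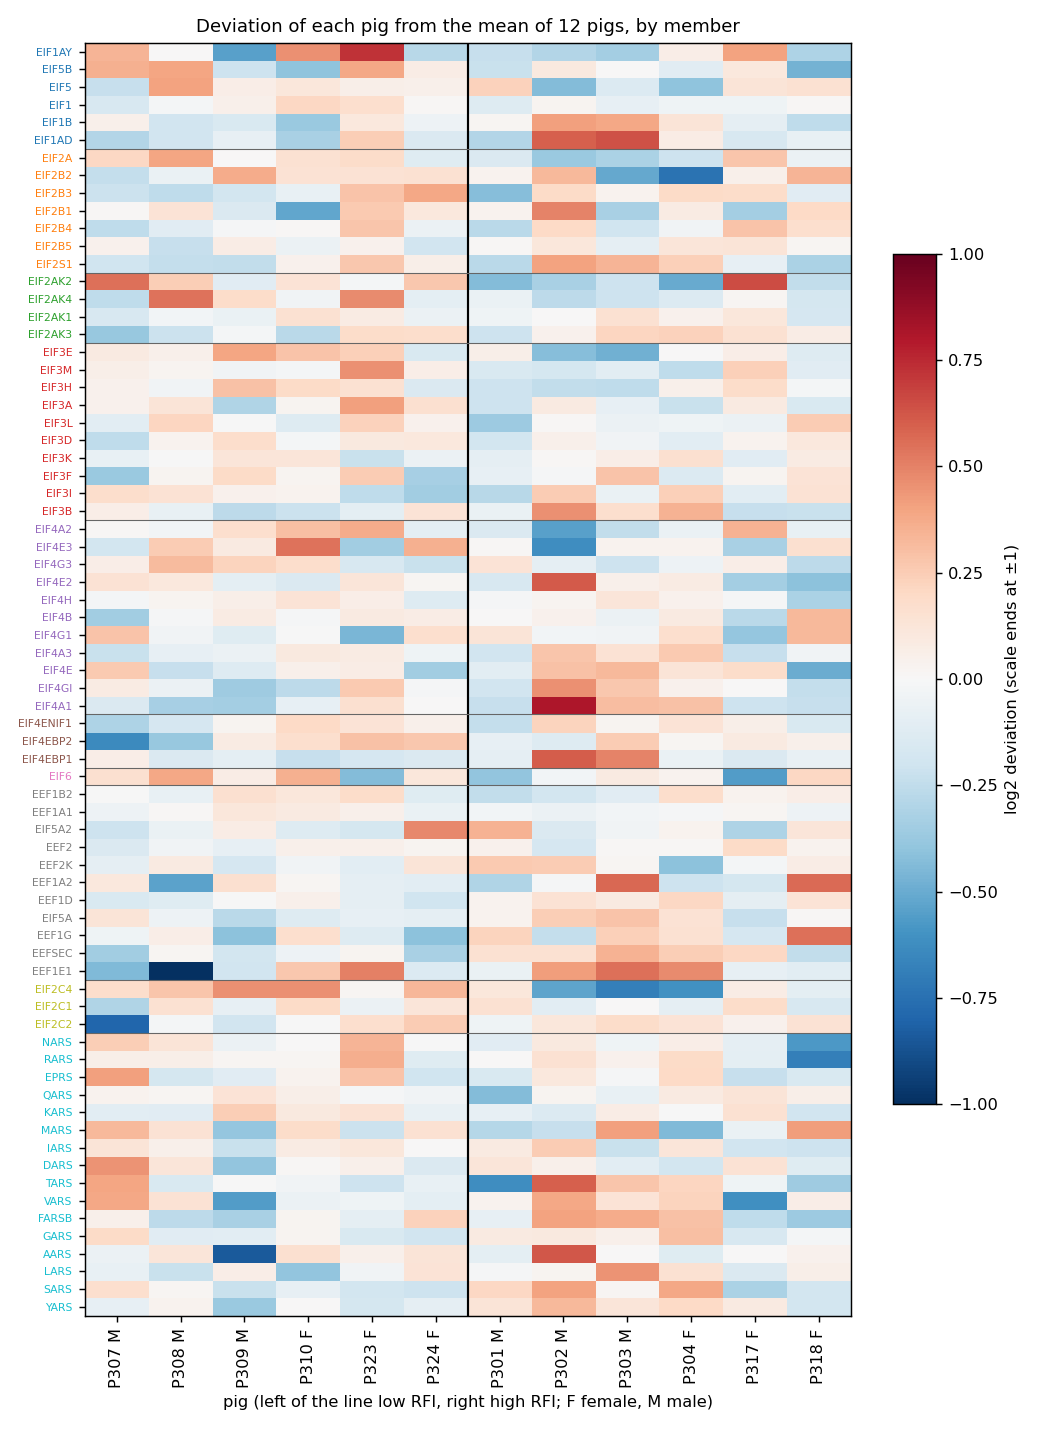
Deviation of each pig (columns, by RFI class) from the mean of the 12 pigs in log2 units (colour) for the 72 members (rows, by role). The column of P302 is raised in many synthetases and eIF4 factors and lowered in EIF2C4, EIF2A and EIF4A2.

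Through the other 55 probe sets of the 33 genes with more than 1, the sign of the difference was that of the brightest in 30, and 13 genes had a single sign throughout. At an unadjusted p under 0.05 there were 3 probe sets, those of EIF5, EIF4E3 and EIF2A above, all with a positive difference, and 0 passed q under 0.30 (smallest q 0.536). With the SD filter, which kept 40 of the 55, 1 passed (EIF5, q = 0.195). EIF2A was the 1 gene with such a p in both its probe sets, but the dimmer one read at most 2.64, under the array median.

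**Figure D4:**
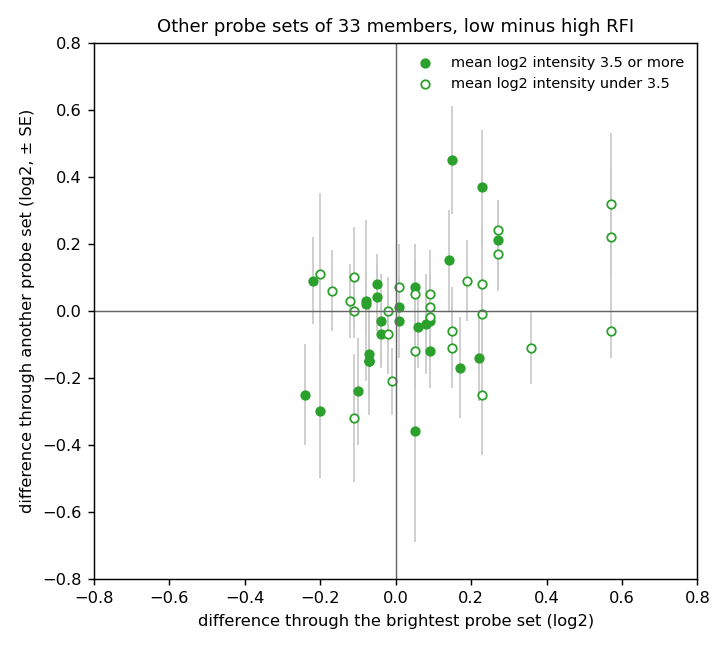
Log2 difference (low minus high RFI) through the brightest probe set of a gene (x axis) against that through each of its other probe sets (y axis), 55 points from 33 genes. Points lie on both sides of 0 on both axes, with 30 of 55 sharing the sign. Open points are probe sets with a mean log2 intensity under 3.5.

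Between the sexes, 0 of 72 members differed at q under 0.30 with RFI class as a covariate (smallest q 0.75, against 0.0582% of all genes and 0.0397% of all probe sets). At an unadjusted p under 0.05 (7.08% of all genes, 6.11% of all probe sets), EIF2B3 and EIF4EBP2 were higher in females by 0.29 and 0.30, and EIF4EBP1 was lower by 0.28 (7.29 ± 0.06 against 7.57 ± 0.33, SD, n = 6 each). The interaction of sex and RFI class passed q under 0.30 in 0 members and an unadjusted p under 0.05 in 1 (EEF1E1), where 4.25% of all genes and 4.44% of all probe sets did.

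In 7 lists of related genes, 44 of 57 were on the array. At an unadjusted p under 0.05, 2 had a higher mean in low RFI (AIMP1 and MTRF1L) and 2 a lower one (AIMP2 and MCTS1), against 4.68% and 4.45% of all genes, and 0 passed q under 0.30 (smallest q 0.534). With the SD filter, AIMP1 passed (q = 0.274), where 3.33% of the genes that it kept were called, and AIMP2 was left out. MTRF1L and MCTS1 read at most 3.05 and 2.86, under the array median in all pigs. The study lists MTRF1L as more abundant in its feed-efficient pigs through another, brighter probe set. The direction of that probe set by the labels is not given here. The list medians lay between -0.13 and 0.23. AIMP1 and AIMP2, the scaffold proteins of the multisynthetase complex, had differences of opposite sign. AIMP1 read 6.74, 6.98, 6.97, 7.19, 7.27 and 6.72 in P307, P308, P309, P310, P323 and P324 of low RFI, against 6.59, 6.59, 6.36, 6.80, 6.93 and 6.40 in P301, P302, P303, P304, P317 and P318 of high RFI, a difference of 0.37 (SE 0.13). AIMP2 read 6.21, 6.46 and 6.15 in P302, P303 and P304, and between 4.92 and 5.33 in all other pigs, with a difference of -0.62 (SE 0.22). ATF4, the transcription factor translated when eIF2 alpha is phosphorylated, likewise had its 3 highest values in P302 (8.76), P303 (8.57) and P304 (8.52), and its difference was -0.41 (95% interval -0.87 to 0.05).

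Of the targets of ATF4 in the amino acid response, SESN2, with its 3 highest values also in P302, P303 and P304, differed by -0.18. TRIB3 differed by -0.14, DDIT3 by -0.13, CHAC1 by -0.05 and ASNS, the asparagine synthetase, by 0.02 (95% interval -0.26 to 0.31). None of these had an unadjusted p under 0.05 through its brightest probe set. The study lists DDIT3 as more abundant in its feed-efficient pigs through another probe set, whose values are not given here. The phosphatase subunits of eIF2 alpha, PPP1R15A (0.04) and PPP1R15B (-0.03), and the kinase MTOR (-0.10) with its partner RPTOR (0.17) had intervals on both sides of 0. Of the mitochondrial synthetases 11 were on the array, 4 with a positive difference, and MARS2 had the largest at -0.47 (95% interval -0.95 to 0.02). The mitochondrial elongation factors TUFM (-0.05) and GFM1 (0.19) did not pass q under 0.30 (q = 0.819 and 0.649).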

How the data were processed

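Each of 12 liver RNA samples was measured on its own Affymetrix snowball array. The submitters' processing notes name GCOS 1.1.1, and RMA normalization by the authors gave the deposited log2 intensities (0.39 to 14.26 over 47845 probe sets). Arrays have no depth, so precision is limited by the 6 pigs per class. Probe sets were compared with limma 3.58.1 in R 4.3.3, modelling RFI class alone over the whole array, without a filter on SD. Storey's q was taken over all probe sets with lambda from 0.05 to 0.9, and a call was made at q under 0.30. Sex was tested with RFI class as a covariate. The fit was tested on simulated data. Symbols are those of the platform annotation (26426 probe sets with 1 symbol, 21419 without), all 72 members were found in RefSeq by symbol or synonym, and coordinates were not used here. The labels give Qiazol extraction and the methods TRI reagent.

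The members, the lists and the alternatives were chosen with earlier results of these data known. Genes named are those with an unadjusted p under 0.05, those called with the SD filter, the 5 largest differences in each direction, the 5 widest and 5 narrowest ranges, paralogs and further members by role. Alternatives were the SD filter, sex, array weights, a variance trend, centring, background probe sets as a covariate, low values left out, Benjamini-Hochberg adjustment, the mean of a gene's probe sets, each sex alone and each pig left out.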

Additional observations from a re-analysis of the deposited data

Results flagged for a closer look

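In 14 of the 144 groups of 6 pigs (72 members in 2 classes), 1 pig lay far from the other 5 of its class by Dixon's ratio at its 95% critical value. Chance flags about 1 group in 20, and no test of the excess was made. In low RFI, P309 was lowest in AARS (6.82, others 7.60 to 7.82) and IARS (6.78, others 7.00 to 7.13), P307 was lowest in EIF4B (3.08) and highest in TARS (5.44), and P323 was highest in EIF3M (4.71). In high RFI, P318 was lowest in EEFSEC (5.95), EIF4H (8.97), NARS (7.37) and RARS (4.23). P317 was highest in EIF2AK2 (6.29, others 5.13 to 5.43) and EIF3M (4.49) and lowest in VARS (5.18). P302 was highest in AARS (8.28, others 7.54 to 7.70), and P301 was lowest in QARS (8.38).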

How the results depend on the processing

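The count of members at q under 0.30 was 1 with the SD filter and 1 with low values left out (EIF2C4, q = 0.0541 and 0.27), 0 to 3 with 1 pig left out (3 without P317) and 0 in the other settings. Members at an unadjusted p under 0.05 with a higher mean in low RFI numbered 5 with array weights, 6 in males only, 0 in females only and 1 to 6 with 1 pig left out (1 without P302 or P303, 6 without P317). Those with a lower mean numbered 1 with the SD filter, with sex as a covariate and with centring, 0 in females only and 0 to 3 with 1 pig left out (0 without P303). The median difference of the members was 0.056 in females only and -0.039 to 0.001 with 1 pig left out. The fits within a sex hold 3 pigs of each class. For 20 single members, 442 of 454 values kept their side of the threshold and moved by less than the spread between pigs, and 10 changed sign, none of them past the threshold. The SD filter, low values left out, the variance trend and Benjamini-Hochberg adjustment can change q but not a difference. The count of 442 includes their values and so is no measure of how stable the differences are. With all probe sets of a gene averaged, EIF2C4 differed by 0.26. With the background covariate the largest moves were those of EIF2AK2, EIF2A, EIF4A2, EIF4E and EIF4G1 (0.05, 0.06, 0.05, -0.32 and 0.17), and EIF3E, EEF1G and EIF2S1 gave 0.20, -0.16 and -0.15. EIF1AD differed by -0.17 without P302 and -0.16 without P303. Counts between the sexes stayed at 0 in all settings tried. No paired analysis was possible because the labels give neither litter nor sibling and the replicate numbers follow accession order.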
